A study of Homo sapiens with 8 samples.

Results

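Tight and adherens junction genes were examined in Caco-2 cells, an established line from a human colorectal adenocarcinoma, cultured either in a gut-on-chip or on Transwell inserts. The list held 46 genes chosen by name, namely claudins, MARVEL proteins, immunoglobulin-like adhesion molecules, scaffold proteins, polarity proteins and a cadherin-catenin group. EPCAM and AFDN were counted in this last group, though neither is a cadherin or a catenin. Of the 46 genes, 40 were measured by a probe set annotated to that gene alone, among 22392 genes measured in this way. OCLN, CXADR and CTNND1 were covered only by probe sets that carry the symbols of several genes, and F11R, MAGI1 and MAGI2 had no probe set with a single symbol. No level was assigned to these 6 genes, so they are not analysed here. Where a gene had several probe sets, the one with the highest mean stood for it. Among the measured genes this applied to CLDN12 alone, whose 4 probe sets did not pass the test.

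The gut-on-chip group comprised 4 samples of cells grown to day 21 on a membrane in a glass microfluidic device. These cells attached without flow for the first day and were then perfused continuously with medium at 100 µL/h, which gave a shear stress of about 0.002 dyne/cm2. The Transwell group comprised 4 samples grown to the same day on PET inserts of 1.12 cm2, without flow and with periodic changes of the same medium. Both groups were seeded at 75000 cells per cm2 from passages 29 to 45, and neither received a compound or a genetic change. Flow, device, supply of medium and lysis volume changed together, so their effects cannot be told apart. Total RNA was hybridised to Affymetrix whole-transcript arrays, 1 array per sample, and levels are log2 values on which a difference of 1 equals a change of 2-fold. Nothing in the sources says that the 4 samples of a group were separate experiments, so the p-values rest on the variation among these samples alone, part or all of which may be technical.

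Tight junctions seal the space between neighbouring epithelial cells near their apical end. Claudins span the membrane and line this seal, and, depending on the claudin, they tighten the barrier or form pores for ions and water. Occludin and the other MARVEL proteins accompany them, zonula occludens (ZO) scaffolds tie the strands to actin, and the Par and Crumbs complexes set apical-basal polarity. Adherens junctions lie just below, where E-cadherin holds cells together through catenins. Caco-2 cells form such junctions when they differentiate on a filter, which is why they serve as a model of the intestinal barrier.

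The arrays had medians of 2.462 to 2.485. Correlations over all probe sets were 0.977 to 0.982 within groups and 0.962 to 0.966 between them. Of 14 measured epithelial and enterocyte markers, 2 were upregulated and 8 downregulated in the gut-on-chip. By the test described below, 13.6% of genes above the median of all probe sets were upregulated and 11.0% downregulated. The summed linear levels of the 14 markers ranged from 6204 to 6862 in gut-on-chip arrays and from 8727 to 8774 in Transwell arrays. None of the 14 had a mean over all 8 arrays at or below the median of all probe sets, although FABP2, a fatty acid binding protein, averaged 2.09 in the gut-on-chip and 5.43 in Transwell. Sucrase-isomaltase (SI) had a log2FC of -5.20. The cytokeratins KRT8, KRT18, KRT19 and KRT20 had values of 0.70, 0.98, 0.74 and 0.66, of which those of KRT8 and KRT20 did not pass. In such bulk samples, fewer cells of a type and less RNA per cell cannot be told apart, and the part of this shift in the junction genes was not tested.

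Of the 40 measured junction genes, 2 were upregulated and 5 downregulated in the gut-on-chip at a false discovery rate (FDR) below 0.01. The test used linear models fitted with limma and variances moderated by mean level, and is marked limma below. Over all genes, 8.72% were upregulated and 7.06% downregulated. Because 32 of the 40 lay above the median of all probe sets, the brighter genes are a closer background, and among these 13.6% were upregulated and 11.0% downregulated. The upregulated genes were ESAM and TJP1, and the downregulated ones were CLDN16, CLDN19, CLDN1, TJP3 and PALS1. At an FDR below 0.05 the counts were 6 upregulated and 8 downregulated junction genes, beside 13.6% and 10.5% of all genes. In 6 genes every gut-on-chip array lay above every Transwell array and in 9 below, beside 17.0% and 13.6% of all genes. These counts were not tested against their background. The median log2FC of the junction genes was -0.03, and that of all genes 0.01. The median size of the change was 0.25 in the junction genes and 0.23 in all genes, against 0.32 in the brighter ones. The plot of log2FC by role shows that the 7 called genes lay among 33 with smaller or less certain differences.

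**Figure D1:**
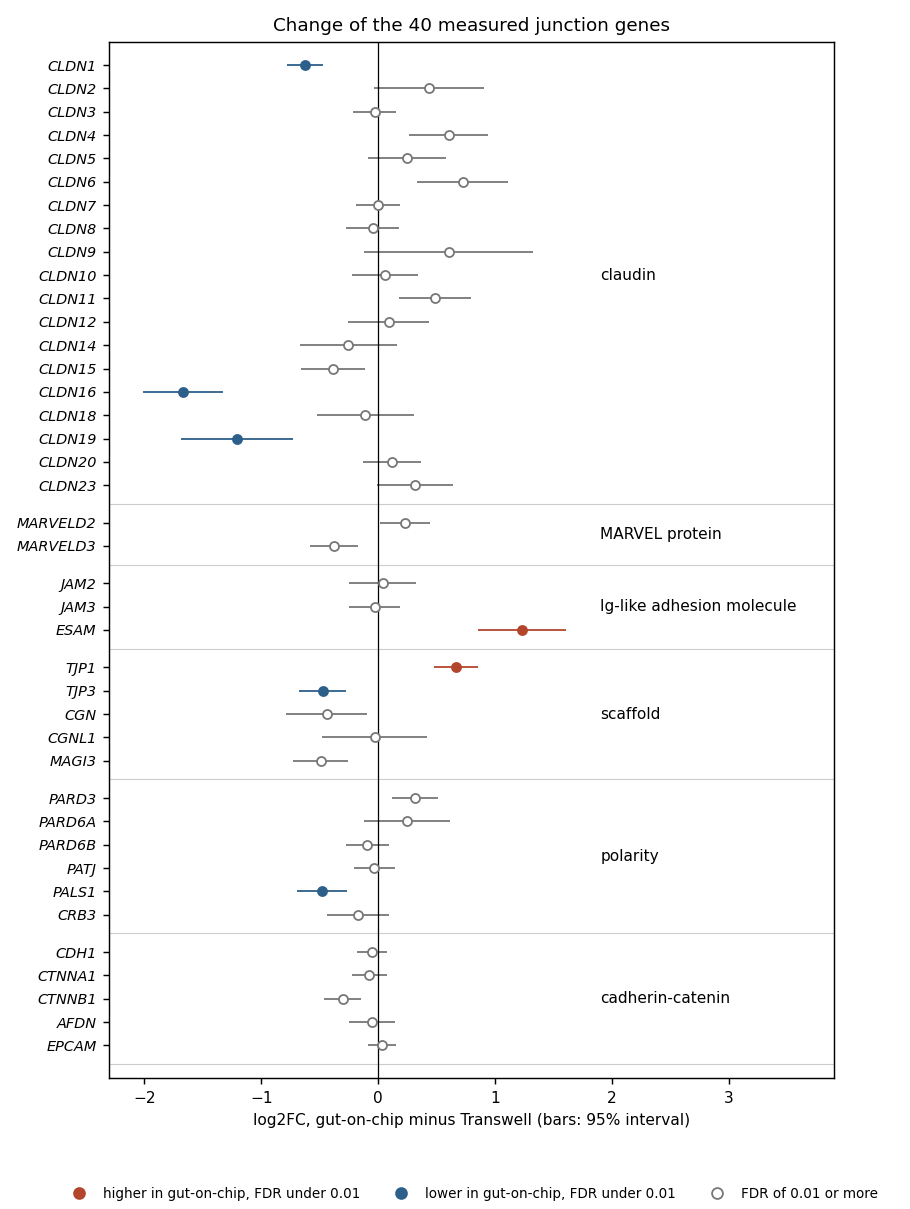
Log2FC (gut-on-chip minus Transwell) of the 40 measured junction genes, grouped by role, with bars for the 95% interval of each gene, not adjusted for the number of genes. Filled points mark the 2 upregulated and 5 downregulated genes at an FDR below 0.01, from CLDN16 at -1.67 to ESAM at 1.23.

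The claudins held the largest decreases of the list. Of 19 measured claudins, 3 were downregulated, none was upregulated and 16 did not pass the test (limma), while 7 in either direction had an unadjusted p below 0.05. Of all genes 35.8% had such a p, and of the brighter genes 51.1%. At the FDR threshold, 8.72% of all genes were upregulated and 7.06% downregulated, and 13.6% and 11.0% of the brighter genes. A prior variance that does not follow the level gave 1 upregulated claudin. The median log2FC was 0.06. CLDN16 and CLDN1 share a locus on chromosome 3, so the 250 bases before their annotated starts are shown here (RefSeq, GRCh38.p14). CLDN16 has 2 such windows on the plus strand, at chr3:190290111-190290360 and chr3:190387913-190388162, and CLDN1 has 1 on the minus strand, at chr3:190322447-190322696. Capitals mark matches on either strand to a GC box (GGGCGG) or an AP-1 site (TGANTCA), none of which overlap each other.
CLDN1: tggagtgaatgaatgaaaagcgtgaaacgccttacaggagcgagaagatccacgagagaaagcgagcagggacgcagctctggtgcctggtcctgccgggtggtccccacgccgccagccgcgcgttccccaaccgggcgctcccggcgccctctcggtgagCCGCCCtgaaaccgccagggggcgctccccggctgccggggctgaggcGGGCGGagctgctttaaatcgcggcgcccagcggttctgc
CLDN16 first start: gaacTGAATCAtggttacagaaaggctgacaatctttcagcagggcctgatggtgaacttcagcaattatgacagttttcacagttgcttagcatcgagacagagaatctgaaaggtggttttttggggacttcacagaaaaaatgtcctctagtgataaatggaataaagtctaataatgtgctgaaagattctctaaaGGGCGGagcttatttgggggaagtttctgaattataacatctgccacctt
CLDN16 second start: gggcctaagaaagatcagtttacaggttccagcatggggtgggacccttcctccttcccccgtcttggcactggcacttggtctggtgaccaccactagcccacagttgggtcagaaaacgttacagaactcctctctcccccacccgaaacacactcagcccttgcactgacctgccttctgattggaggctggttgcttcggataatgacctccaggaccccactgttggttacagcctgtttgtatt
The CLDN1 window held 2 GC boxes, at 88 and 40 bases before the start. The first CLDN16 window held 1 GC box at 50 bases and 1 AP-1 match at 246 bases before the start. None of the motifs searched occurred in the second CLDN16 window. Of 35116 windows of the same length in the table, 42.6% held a GC box and 6.57% an AP-1 match. None of these 3 windows held a TATA box (TATAAA, in 10.7% of all windows), the E-box bound by Snail and ZEB (CACCTG, 17.5%), a Grainyhead-like site (AACCNGTT, 1.49%), a GATA site (AGATAA, 9.17%), an HNF1 half-site (GTTAAT, 6.23%) or a CDX site (TTTATG, 9.64%). These are matches of letters only. Of the 40 measured genes, 27 had at least 1 window in the table, 42 in all, of which 27 held a GC box.

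CLDN16 encodes claudin-16, which with claudin-19 forms the paracellular route for magnesium and calcium in the kidney. Its log2 level was 4.74, 5.32, 5.08 and 4.92 in the gut-on-chip arrays, against 6.82, 6.85, 6.70 and 6.38 in the Transwell arrays. The groups did not overlap, and the highest gut-on-chip array lay more than 1 log2 unit below the lowest Transwell array. The level was thus 3.18-fold lower in the gut-on-chip, with a log2FC of -1.67 (SE 0.15, n = 4 each, FDR 5.97e-05, limma). CLDN19, its partner in that tissue, had levels of 3.47, 2.58, 3.44 and 2.99 in gut-on-chip samples and 4.39, 4.38, 4.37 and 4.16 in Transwell samples. Again no gut-on-chip array reached any Transwell array, while the gut-on-chip samples were more spread out (SD 0.42 against 0.11 in Transwell). The log2FC of CLDN19 was -1.21 (SE 0.22, FDR 0.00352, limma), a level 2.31-fold lower. Its FDR was 0.0128 to 0.0132 without gut-on-chip replicate 4 or without Transwell replicate 1, 2 or 3, which ends the call.

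CLDN1 encodes a claudin that tightens the barrier. Its levels of 8.80, 8.88, 8.60 and 8.78 in gut-on-chip samples lay below those of 9.40, 9.40, 9.41 and 9.34 in Transwell samples. The 2 groups were well separated, with all Transwell arrays within a narrow range. The log2FC was -0.62 (SE 0.07, FDR 2.08e-04, limma), a level 1.54-fold lower in the gut-on-chip. In the RefSeq gene table CLDN1 lies inside the span of CLDN16, on the opposite strand. TMEM207 is the next protein-coding gene by start position and is not contained in that span. TMEM207, which is no junction gene and was picked after its values were seen, had levels of 8.40, 7.78, 7.88 and 7.20 in gut-on-chip samples and 9.47, 9.54, 9.56 and 9.48 in Transwell samples. It was downregulated as well, with a log2FC of -1.70 (SE 0.20, FDR 2.80e-04, limma). The outer neighbours gave other values. P3H2, a collagen prolyl hydroxylase, was upregulated with a log2FC of 0.95 (FDR 0.00301, limma), a call lost without gut-on-chip replicate 4 or Transwell replicate 3 or 4 (FDR 0.0115 to 0.0117). IL1RAP, a co-receptor of interleukin 1, had a log2FC of 0.26 (FDR 0.349). The neighbours of the other called junction genes were read too. Near PALS1, which was downregulated, GPHN, EIF2S1 and PLEK2 were upregulated with log2FC values of 0.53, 0.84 and 1.03. None of the measured neighbours of CLDN19, ESAM, TJP1 or TJP3 passed.

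The other barrier-type claudins did not pass the test. CLDN4 averaged 5.55 ± 0.20 in the gut-on-chip and 4.95 ± 0.22 in Transwell (SD, n = 4 each), and CLDN6, known from embryonic epithelia, averaged 3.23 ± 0.21 in the gut-on-chip and 2.51 ± 0.18 in Transwell. CLDN11, the claudin of myelin and Sertoli cells, was dim and averaged 2.46 ± 0.17 in the gut-on-chip and 1.97 ± 0.08 in Transwell. In each of these 3 genes the gut-on-chip arrays all lay above the Transwell arrays. Their log2FC was 0.60, 0.72 and 0.48 at FDRs of 0.0224, 0.0180 and 0.0397 (limma), short of the threshold of 0.01. CLDN3, a barrier claudin of the intestine, was nearly level at 8.77 ± 0.14 in the gut-on-chip and 8.80 ± 0.08 in Transwell, with a log2FC of -0.03 and a 95% interval of -0.22 to 0.15. CLDN7, which also occurs along the lateral membrane, had a log2FC of 0.00 with an interval of -0.19 to 0.18. Both intervals are per gene and not adjusted for the number of genes.

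Of the 5 pore-forming claudins, CLDN16 and CLDN19 were downregulated and 3 did not pass. Over all genes 7.06% were downregulated, and 11.0% of the brighter ones. The count among these 5 claudins was not tested against those shares, and the CLDN19 call was lost without some single arrays, as given above. CLDN2, the cation and water pore of leaky epithelia, averaged 4.04 ± 0.38 in the gut-on-chip and 3.60 ± 0.17 in Transwell, with a log2FC of 0.44 and an FDR of 0.231 (limma). One gut-on-chip array, at 3.48, lay within the Transwell range, so the groups overlapped. CLDN15, a sodium pore of the small intestine, averaged 5.13 ± 0.12 in the gut-on-chip and 5.51 ± 0.16 in Transwell. Its log2FC was -0.38 at an FDR of 0.0658 (limma). CLDN10 was dim in both groups, with a log2FC of 0.06. With CLDN11 it was among 6 claudins whose mean level lay below 2.455, the median over all probe sets. The other 4 of these (CLDN5, CLDN8, CLDN18 and CLDN20) had log2FC values of 0.24, -0.05, -0.11 and 0.12, and signal this low leaves a change hard to detect. CLDN9, CLDN12, CLDN14 and CLDN23 completed the family with log2FC values of 0.60, 0.09, -0.25 and 0.32 and FDRs of 0.295, 0.797, 0.463 and 0.208 (limma).

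**Figure D2:**
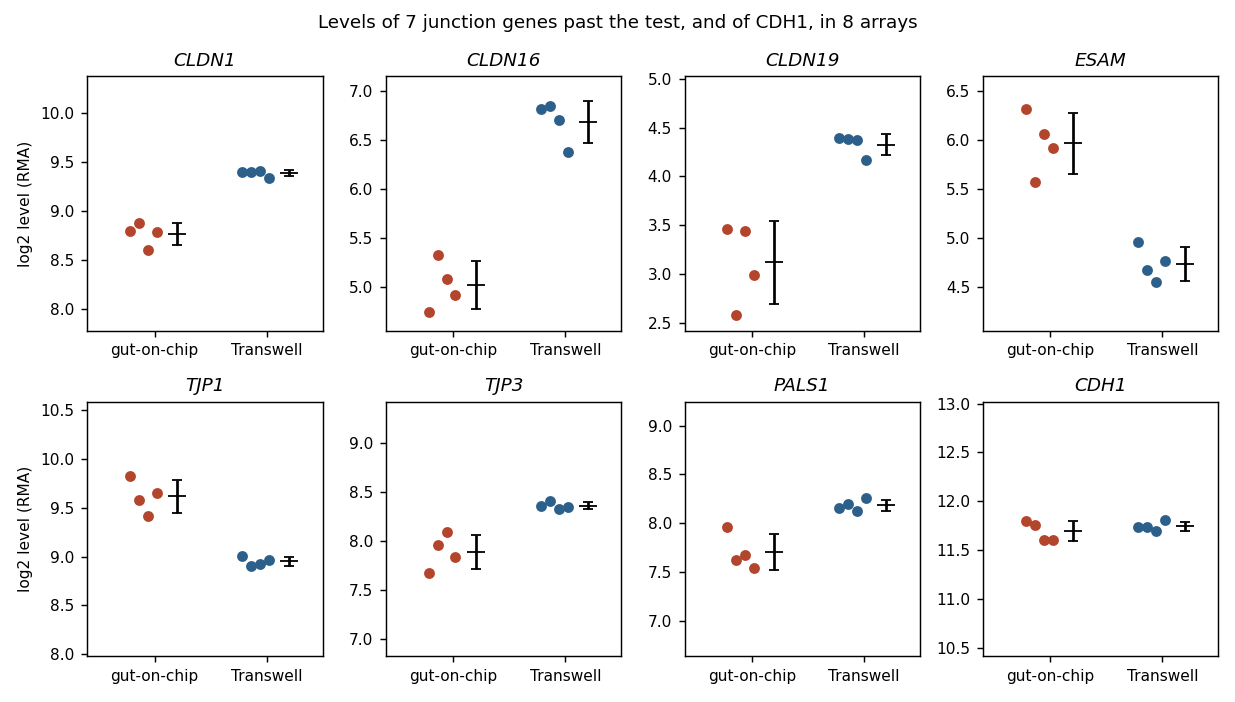
Log2 levels of the 7 junction genes past the test and of CDH1, with gut-on-chip arrays on the left and Transwell arrays on the right of each panel (points, 4 arrays per group; bars, mean ± SD). Every panel spans 2.6 log2 units, and the groups overlap only for CDH1.

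Among the MARVEL proteins, tricellulin (MARVELD2), which seals the corners where cells meet, averaged 9.04 ± 0.17 in the gut-on-chip and 8.81 ± 0.11 in Transwell. Its log2FC of 0.23 had an FDR of 0.164 (limma), and the groups overlapped. MARVELD3 averaged 7.18 ± 0.12 in the gut-on-chip and 7.56 ± 0.13 in Transwell, without overlap. Its log2FC was -0.38 at an FDR of 0.0204 (limma), so neither gene passed the threshold.

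Of 3 immunoglobulin-like adhesion molecules, 1 was upregulated. ESAM, an adhesion molecule best known from endothelial cells and platelets, had levels of 6.32, 5.57, 6.06 and 5.92 in gut-on-chip samples, against 4.96, 4.67, 4.55 and 4.76 in Transwell samples. The groups did not overlap, although the gut-on-chip samples were more spread out (SD 0.31 against 0.17 in Transwell). Its log2FC was 1.23 (SE 0.17, n = 4 each, FDR 7.01e-04, limma), a level 2.35-fold higher in the gut-on-chip. JAM2 and JAM3 were dim, with mean levels of 1.69 and 1.40 and log2FC values of 0.04 and -0.03. Of 6 measured endothelial markers, 1 was upregulated, none was downregulated and 4 lay at or below the median of all probe sets. Over all genes, 8.72% were upregulated and 7.06% downregulated by the same test. The marker that passed was CDH5, VE-cadherin, with levels of 3.76, 3.82, 3.93 and 4.28 in gut-on-chip samples and 1.95, 1.94, 2.08 and 2.46 in Transwell samples. VWF had a log2FC of 0.42 (FDR 0.127), TEK of -0.02, KDR of -0.11, TIE1 of 0.01 and EGFL7 of -0.35. The linear levels of the 6 markers summed to 43.0 to 50.1 in gut-on-chip arrays and 36.3 to 43.1 in Transwell arrays, and their part in the ESAM difference was not tested.

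Scaffold genes moved in both directions. TJP1, which encodes ZO-1 and links claudins to actin, had levels of 9.82, 9.58, 9.41 and 9.65 in gut-on-chip arrays and 9.01, 8.91, 8.92 and 8.96 in Transwell arrays. All gut-on-chip values were above all Transwell values. The log2FC of TJP1 was 0.67 (SE 0.08, FDR 4.59e-04, limma), a level 1.59-fold higher. TJP3, which encodes the related ZO-3, had levels of 7.67, 7.96, 8.09 and 7.84 in gut-on-chip arrays and 8.36, 8.41, 8.33 and 8.35 in Transwell arrays. Here the order was the opposite, again without overlap, and the Transwell arrays lay close together (SD 0.03, against 0.18 in the gut-on-chip). The log2FC of TJP3 was -0.48 (SE 0.09, FDR 0.00518, limma), a level 1.39-fold lower. This call was lost without gut-on-chip replicate 4 or without any one Transwell array, at FDRs of 0.0163 to 0.0201, and with a prior variance that does not follow the level (FDR 0.0212).

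The remaining scaffold genes did not pass. MAGI3, a multi-PDZ scaffold, averaged 6.28 ± 0.13 in the gut-on-chip and 6.78 ± 0.15 in Transwell, with a log2FC of -0.49 at an FDR of 0.0104 (limma). Its groups did not overlap, and its FDR was 0.00685 without gut-on-chip replicate 2. Cingulin (CGN), a cytoplasmic plaque protein of the tight junction, averaged 7.17 ± 0.34 in the gut-on-chip and 7.61 ± 0.14 in Transwell, with a log2FC of -0.44 (FDR 0.096). Gut-on-chip replicate 4 was the lowest of its group at 6.66. Paracingulin (CGNL1) had a log2FC of -0.03 with overlapping groups. The median log2FC over the 5 scaffold genes was -0.44, and it was -0.27 without gut-on-chip replicate 4.

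Of 6 polarity genes, 1 was downregulated, beside 7.06% of all genes and 11.0% of the brighter ones, to which all 6 belong. PALS1, the scaffold that connects Crumbs to PATJ, had levels of 7.96, 7.62, 7.68 and 7.55 in gut-on-chip samples and 8.15, 8.20, 8.12 and 8.25 in Transwell samples. The groups were apart, although gut-on-chip replicate 1 came close to the lowest Transwell array. Its log2FC was -0.48 (SE 0.10, FDR 0.00632, limma), a level 1.39-fold lower. Of the 7 calls it was lost under the most alternatives, among them with the prior that does not follow the level (FDR 0.0231) and when any one array other than gut-on-chip replicate 1 was left out, at FDRs of 0.0167 to 0.0243.

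Neither of the partners of PALS1 passed the test. CRB3, the epithelial Crumbs protein, had a log2FC of -0.17 (95% interval -0.44 to 0.09) and PATJ one of -0.03 (-0.21 to 0.14). In the Par complex, PARD3 averaged 7.91 ± 0.07 in the gut-on-chip and 7.59 ± 0.15 in Transwell without overlap, with a log2FC of 0.32 at an FDR of 0.0365 (limma). PARD6A had a log2FC of 0.25 (FDR 0.422) and PARD6B of -0.09 (FDR 0.569), both with overlapping groups.

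None of the 5 genes of the cadherin-catenin group passed the test (limma), 1 had an unadjusted p below 0.05, and 4 had overlapping groups. Of all genes, 8.72% were upregulated, 7.06% downregulated and 35.8% had such a p, against 13.6%, 11.0% and 51.1% of the brighter ones. Every gut-on-chip array lay above every Transwell array in 17.0% of all genes and below in 13.6%. The counts of these 5 genes were not tested against those shares. E-cadherin (CDH1), the adhesion receptor of the adherens junction, had levels of 11.80, 11.76, 11.60 and 11.61 in gut-on-chip samples, against 11.73, 11.73, 11.70 and 11.81 in Transwell samples. The groups overlapped, with gut-on-chip replicates 3 and 4 below the lowest Transwell array. Its log2FC was -0.05 (SE 0.06, 95% interval -0.18 to 0.08, FDR 0.667, limma). EPCAM, an epithelial adhesion molecule that binds claudin-7, gave 0.03 (-0.09 to 0.15), afadin (AFDN), which couples nectins to actin, gave -0.06 (-0.25 to 0.14), and alpha-catenin (CTNNA1) gave -0.07 (-0.23 to 0.08). Beta-catenin (CTNNB1) was the exception in this group. It averaged 7.51 ± 0.05 in the gut-on-chip and 7.81 ± 0.07 in Transwell without overlap, and its log2FC of -0.30 had an FDR of 0.0153 (limma), short of the threshold.

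**Figure D3:**
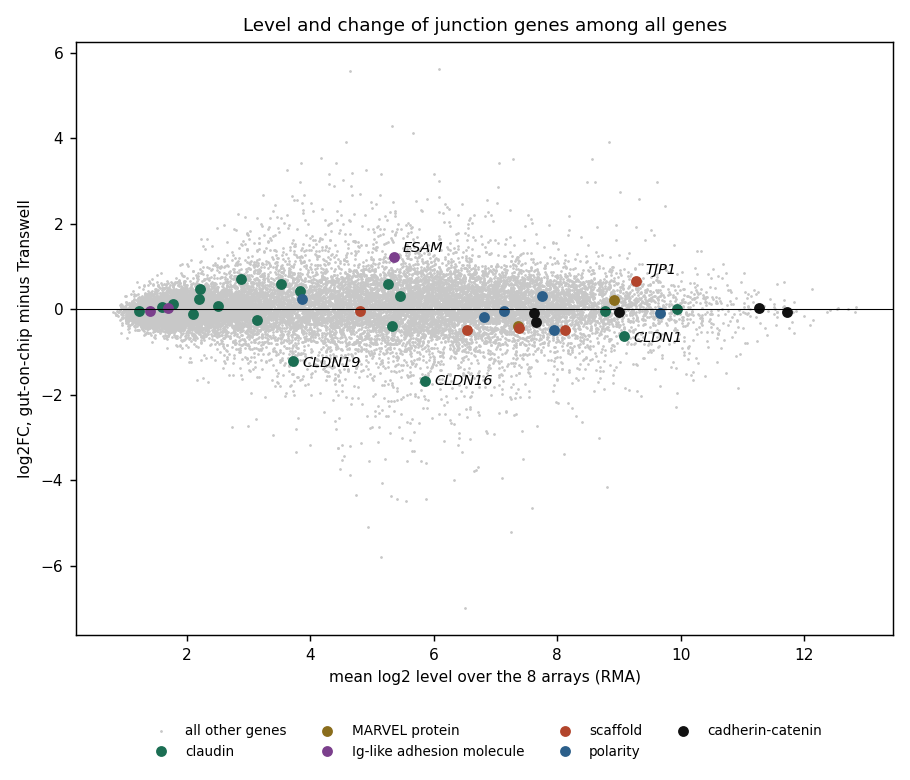
Log2FC (gut-on-chip minus Transwell) against the mean log2 level over the 8 arrays, for the 40 measured junction genes coloured by role and all other genes in grey. CDH1 and EPCAM lie at the bright end near 0, and CLDN16, CLDN19 and ESAM lie at intermediate levels away from 0.

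The median residual SD was 0.14 for the measured junction genes and 0.20 for all genes on the log2 scale. The plot of level against change shows junction genes over the whole range of levels, and the 8 dim ones held no call.

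Other cell-cell contact genes were described through 6 further lists. At the same FDR, 8.72% of all genes were upregulated and 7.06% downregulated, and 13.6% and 11.0% of the brighter genes. The counts of the lists were not tested against these shares. Of 14 desmosome genes, which anchor keratin filaments, 1 was upregulated and 1 downregulated. Plakoglobin (JUP), shared by desmosomes and adherens junctions, had a log2FC of 0.33 (FDR 0.00338, limma), a call lost without gut-on-chip replicate 4 or Transwell replicate 1, 3 or 4 (FDR 0.0102 to 0.0151). The desmosomal cadherin DSC2 had levels of 8.25, 7.87, 7.98 and 8.16 in gut-on-chip arrays and 8.95, 8.98, 8.91 and 9.00 in Transwell arrays (log2FC -0.89). Desmoplakin (DSP), the brightest that did not pass, had a log2FC of 0.26. Of 10 measured genes in the gap junction list (connexins, which form channels between cells, and PANX1), 2 were upregulated and 1 downregulated. The connexin genes GJA5 and GJA1 had log2FC values of 1.42 and 1.26, GJB1 one of -1.24, and the unpassed PANX1 one of 0.31.

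Cadherins other than E-cadherin, nectins and their linkers showed the widest range. Of 16 measured, 4 were upregulated and 5 downregulated, beside 8.72% and 7.06% of all genes. CDH5 had a log2FC of 1.84 and vinculin (VCL), which reinforces cadherin-actin links under tension, one of 1.21, while CDH16, a cadherin best known from kidney, had one of -2.64 and NECTIN3 one of -1.17. CDH16 had levels of 3.81, 4.51, 4.48 and 4.15 in gut-on-chip arrays and 6.82, 6.93, 6.81 and 6.94 in Transwell arrays. The other called genes, named after their values were seen, were CTNNAL1 (1.05) and P-cadherin CDH3 (0.56) among the upregulated, and CDH6 (-0.97), NECTIN1 (-0.80) and the intestinal cadherin CDH17 (-0.60) among the downregulated. The call of NECTIN1 was lost without any one array (FDR 0.0151 to 0.0317), that of CDH6 without gut-on-chip replicate 2, 3 or 4 or Transwell replicate 1, 2 or 3 (0.0216 to 0.0300), and that of CDH3 without gut-on-chip replicate 2 or 4 or Transwell replicate 1, 2 or 4 (up to 0.0130). NECTIN2 did not pass at 0.19.

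Among 20 other tight junction-associated genes, 3 were upregulated and none downregulated (limma), beside 8.72% and 7.06% of all genes. In either direction, 7 had an unadjusted p below 0.05 (limma), beside 35.8% of all genes and 51.1% of the brighter ones. Of the 20, 17 were among the brighter genes. YBX3, the ZO-1 partner also called ZONAB, had a log2FC of 1.18, the adhesion molecule CLMP one of 1.06 and the angulin LSR, named after its values were seen, one of 0.41. The call of LSR was lost without gut-on-chip replicate 3 or 4 or any one Transwell array (FDR 0.0107 to 0.0154). CD2AP did not pass at 0.11. Of 19 other polarity genes, DLG5 was upregulated (0.62) and LIN7A and PARD3B were downregulated (-1.21 and -0.74). CDC42 did not pass at 0.07. Of 18 genes of junctional actomyosin, the contractile belt below the junctions, 2 were upregulated and none downregulated, beside 9 at an unadjusted p below 0.05 in either direction (brighter genes, to which all 18 belong, 51.1%). These were the myosin heavy chain MYH9 (0.64) and the light chain MYL12A (0.52). The call of MYL12A was lost without any one array, at FDRs of 0.0143 to 0.0323. ACTN4 did not pass at 0.08. The strip plot shows called genes on both sides of 0 in 4 of the 6 lists, beside list medians between -0.08 and 0.16.

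**Figure D4:**
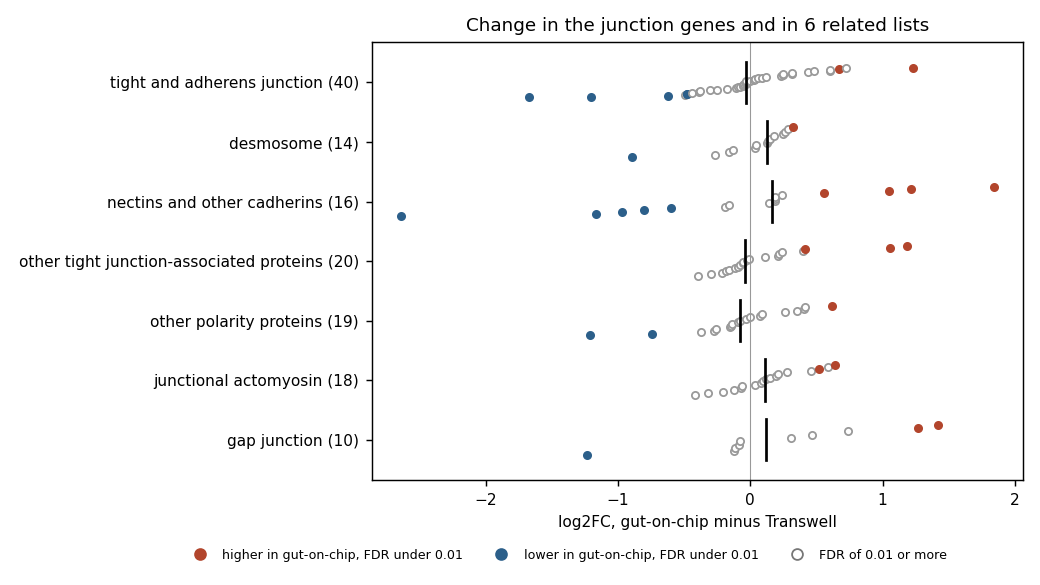
Log2FC (gut-on-chip minus Transwell) of each measured gene in the junction genes (top) and 6 related lists, with the number of genes in brackets and black bars at the list medians. Filled points passed an FDR of 0.01, and CDH16 at -2.64 and CDH5 at 1.84 mark the ends of the range.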

How the data were processed

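Levels are the log2 values that the authors deposited after RMA, which corrects background, normalizes quantiles between arrays and summarises probes (version not given in the sources used here). Quantile normalization removes differences in overall signal, so changes are relative to the other genes of an array. No detection calls were used. The labels name an RNeasy Mini kit and the methods a Micro kit. The deposited table held 53617 probe sets, of which the platform annotation gave 23866 a single symbol, 1852 several and 27899 none; RefSeq identifiers matched 22560 of the first and changed 0 symbols.

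All probe sets of the 8 arrays were fitted with limma 3.58.1 in R 4.3.3, gut-on-chip minus Transwell, without a block. The moderation of variances was coded separately rather than taken from limma, and values marked limma come from this combined test. Each variance was moderated towards a prior fitted on mean level (loess span 0.3; prior df 3.88, residual df 6), p-values were two-sided and adjusted after Benjamini-Hochberg across the whole table, and the threshold was an FDR of 0.01. The code was tested on simulated data. Alternatives were a prior without the trend, limma's robust trend prior, a second quantile normalization, a filter on dim probe sets, probe sets with 1 symbol, probe sets averaged per gene, array weights, a replicate block, an FDR of 0.05 and each array left out.

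Junction genes and lists were chosen with earlier results of these data known. All members could be named, those past the threshold with every array; of each further list, up to 2 increases and 2 decreases and the brightest gene that did not pass were named, and further ones are marked as named after their values were seen. The sources do not say whether the replicate numbers pair samples. Same-numbered samples had correlations of deviations from group means of -0.04 to 0.00, and samples with other numbers -0.03 to 0.06. These values do not exclude a shared origin of same-numbered samples. With 4 arrays per group, their number limits the precision. Markers of fibroblasts (0 of 6 upregulated, 1 downregulated) and immune cells (1 of 6 upregulated, 0 downregulated) were also read. Over all genes, 8.72% were upregulated and 7.06% downregulated.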

Additional observations from a re-analysis of the deposited data

Results flagged for a closer look

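Single arrays stood apart from the other 3 of their group, by the size of their gap relative to the group's range, in 9 of 142 groups of 4 arrays tested. Chance marks about 1 in 20 groups, which is 7.1 here. Among the claudins, Transwell replicate 4 had the lowest CLDN1 level, 9.34 against 9.40 to 9.41 in its group, and the lowest CLDN19 level, 4.16 against 4.37 to 4.39. CLDN15 was 5.31 in gut-on-chip replicate 3, against 5.05 to 5.08 in the other gut-on-chip arrays. CGN was 6.66 in gut-on-chip replicate 4, against 7.29 to 7.41. CTNNA1 was 7.51 in gut-on-chip replicate 3, against 7.60 to 7.61. Outside the members, VCL was 8.34 in gut-on-chip replicate 3, against 8.60 to 8.64, and 7.24 in Transwell replicate 1, against 7.38 in the others. CDC42 was 8.76 in Transwell replicate 3, against 8.86 to 8.87. IL1RAP was 4.88 in gut-on-chip replicate 3, against 4.54 to 4.60.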

How the results depend on the processing

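CLDN1, CLDN16, ESAM and TJP1 kept their direction and their call in every alternative run. No called value changed sign, while 10 junction genes that passed in no setting did (CLDN3, CLDN7, CLDN10, CLDN12, CLDN18, JAM2, JAM3, CGNL1, PATJ and AFDN, within -0.23 to 0.16). The number of downregulated junction genes, 5, was 3 with a prior without an intensity trend, 8 with probe sets of 1 symbol or averaged per gene and at an FDR of 0.05, and 2 to 5 with 1 array left out. The number upregulated, 2, was 4 with probe sets of 1 symbol or averaged per gene and 6 at an FDR of 0.05. With a replicate block, 2 were downregulated, with 0 scaffold and 0 polarity genes; CLDN19 had an FDR of 0.0120, TJP3 0.0179 and PALS1 0.0256. The sources do not say whether the numbers mark shared experiments, and the reason for these losses was not tested. Scaffold genes downregulated, 1, were 0 without the trend, 2 with quantile normalization again, the dim filter, array weights, probe sets of 1 symbol or averaged and at 0.05, and 0 to 2 with 1 array left out. Polarity genes downregulated, 1, were 0 without the trend and 0 to 1 with 1 array left out. Claudins upregulated, 0, were 1 without the trend or with the dim filter, 2 with probe sets of 1 symbol or averaged, and 3 at 0.05. Cadherin-catenin genes downregulated, 0, were 1 with quantile normalization again, the dim filter, probe sets of 1 symbol or averaged and at 0.05. MARVEL genes downregulated, 0, were 1 with probe sets of 1 symbol or averaged and at 0.05, where polarity genes upregulated were 1. The genes of the 6 further lists upregulated, 13, were 20 at 0.05. The scaffold median was -0.49 to -0.27 with 1 array left out, and the median of immunoglobulin-like molecules was 1.23 with the dim filter, which left ESAM alone. Runs on fewer probe sets or arrays also refitted the prior variance, and the causes of these changes were not tested.

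NECTIN1, MYL12A, LSR, CDH6, CDH3, JUP and P3H2 lost their call without single arrays, as given beside them, and with the replicate block. JUP (FDR 0.0448), LSR (0.0293), CDH3 (0.0162) and MYL12A (0.0150) also lost it with the prior without an intensity trend, and MYL12A with quantile normalization again (0.0169). Dim genes, near the array medians, limit what the 8 arrays can show.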
